A study of Mus musculus with 4 samples.

Results

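The AP-1, ATF3 and BATF genes are 10 transcription factor genes, Fos, Fosb, Fosl2, Jun, Junb, Jund, Atf3, Batf, Batf2 and Batf3, of 55536 annotated genes measured in bone-marrow-derived macrophages. They were chosen by gene symbol, and all 10 had a row in every library. The cells came from C57BL/6J mice and form 1 group of 4 libraries of polyA-selected RNA, numbered as biological replicates 1 to 4, whose biosamples carry the same donor identifier. Per the labels, they had received 100 ng/ml lipid A for 12 h, had been washed and kept for another 12 h, and were taken at 0 min of the second stimulation. Lipid A is the part of bacterial lipopolysaccharide that TLR4 senses. Other label fields call the agent lipoprotein A. Sex and age were not recorded. The series has no untreated cells, so no level given here is an effect of the pretreatment.

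The 4 libraries split 2 against 2 on a technical record: 4 read files are listed for replicates 3 and 4, against 6 for replicates 1 and 2. Gene counts summed to 48875474 and 57126811 in replicates 3 and 4, against 25594338 and 27384161 in replicates 1 and 2. Mitochondrial genes took 3.34% and 3.00% of the counts in replicates 3 and 4, against 0.778% and 1.16% in replicates 1 and 2. What the split reflects is not known, and it is no treatment. Every comparison below sets replicates 3 and 4 against replicates 1 and 2 on this record, and its p-values measure the spread between these libraries only. The macrophage label held: all 8 macrophage markers reached 1 TPM (a level scaled by transcript length and library), with a summed level of 14850 and 17540 TPM in replicates 3 and 4, against 16550 and 17150 TPM in replicates 1 and 2. Neutrophil markers summed to 80.05 and 6.98 TPM in replicates 3 and 4, against 90.51 and 14.21 TPM in replicates 1 and 2, with 3 of 8 at 1 TPM or more and Ly6g at 0 in every library. Of dendritic cell, T and NK cell, B cell and fibroblast markers, 1 of 6, 0 of 6, 1 of 5 and 0 of 5 reached 1 TPM, and no library summed to more than 4.95 TPM for any of these lists. In bulk RNA, fewer cells of a type and less RNA per cell cannot be told apart.

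AP-1 is a family of dimers joined through leucine zippers and bound to DNA through adjacent basic regions. JUN proteins pair with themselves, with FOS proteins or with relatives such as ATF3, whereas FOS proteins need a partner such as JUN to bind DNA. In macrophages, Toll-like receptors switch Fos, Jun, Junb and Atf3 on through MAP kinases, and ATF3 is known in mice to restrain the cytokine genes that TLR4 induces. BATF proteins pair with JUN proteins and act together with IRF4 or IRF8 at composite DNA elements.

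Known AP-1 and CRE elements lie close to the start of several of these genes, so promoter windows are shown for the 5 members in which TGACGT, TGACATCA or TATAAA fell near the annotated start. Of 10 members, 9 had an entry in the RefSeq promoter table (build GRCm38.p6), and Batf2 had none. Windows around the start of the main transcript could be cut for 7 of these. For Fosl2 and Jund the entry did not cover that stretch. Each window below runs 5′ to 3′ along the gene over 160 bases, of which 150 precede the start of the main GENCODE transcript and 10 follow it. Capitals mark TGACGT on either strand, the core of a cAMP response element or CRE. They also mark TGACATCA, an AP-1 element variant, and TATAAA, the box at which the general transcription machinery assembles.
Fos (chr12:85473740-85473899, plus strand): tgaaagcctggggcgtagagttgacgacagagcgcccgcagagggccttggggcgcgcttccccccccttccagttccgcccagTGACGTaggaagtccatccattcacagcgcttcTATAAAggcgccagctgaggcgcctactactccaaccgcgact
Jun (chr4:95052213-95052372, minus strand): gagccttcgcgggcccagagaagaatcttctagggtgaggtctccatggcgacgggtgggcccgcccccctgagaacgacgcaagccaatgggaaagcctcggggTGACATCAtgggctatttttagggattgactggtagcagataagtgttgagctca
Junb (chr8:84978709-84978868, minus strand): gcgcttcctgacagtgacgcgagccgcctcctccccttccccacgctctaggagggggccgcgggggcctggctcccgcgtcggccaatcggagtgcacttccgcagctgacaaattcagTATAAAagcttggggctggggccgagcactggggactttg
Atf3 (chr1:191183331-191183490, minus strand): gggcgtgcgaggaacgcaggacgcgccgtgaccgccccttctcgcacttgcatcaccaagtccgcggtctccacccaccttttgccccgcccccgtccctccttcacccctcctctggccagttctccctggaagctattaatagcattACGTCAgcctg
Batf (chr12:85686519-85686678, plus strand): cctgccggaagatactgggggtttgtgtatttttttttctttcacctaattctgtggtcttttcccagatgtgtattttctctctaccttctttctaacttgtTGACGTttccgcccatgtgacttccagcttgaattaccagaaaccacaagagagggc
The core TGACGT began 66 bases before the start of Fos and 47 bases before that of Batf, and in reverse complement 1 base before that of Atf3. TGACATCA began 45 bases before the start of Jun. TATAAA began 33 bases before the start of Fos and 30 bases before that of Junb. Over the RefSeq windows of 300 bases, searched on both strands, TGACGT was found in 3 of 9 members and in 7.51% of 32851 promoters. TGACATCA was found in 1 of 9 members and 3.62% of promoters, and TATAAA in 2 of 9 members and 13.6% of promoters. The full palindrome TGACGTCA, which contains the core, was found in 0 of 9 members and 1.79% of promoters. The consensus AP-1 site TGACTCA was found in 0 of 9 members and 5.2% of promoters. The general elements CCAAT and GGGCGG, a GC box, were found in 3 and 7 of 9 members and in 37.4% and 35.7% of promoters. These are matches of letters in a short window, and the search of 7 motifs was settled after matches had been seen. Fos and Batf are neighbours on chromosome 12, 209.4 kb apart, and Batf3 and Atf3 on chromosome 1, 61.4 kb apart.

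Atf3 had the highest level of the 10 in every library and Fosb was near 0. The lead of Atf3 over Batf was smallest in replicate 2, at 241 against 186 TPM. In replicates 3 and 4, 246 and 308 TPM of the Atf3 level were assigned to a short form without a coding sequence, an estimate described below. By mean TPM over the 4 libraries (± SD), Atf3 stood at 339 ± 98.6, Batf at 129 ± 39.1, Junb at 107 ± 65.8, Jun at 70.9 ± 5.06, Batf2 at 47.4 ± 9.93, Jund at 45.9 ± 30.2, Fos at 12.7 ± 12.5, Batf3 at 3.56 ± 1.62, Fosl2 at 1.29 ± 0.696 and Fosb at 0.0425 ± 0.0171. Among all 55536 genes, Atf3 ranked at place 423, Batf at 1063, Junb at 1278 and Jun at 1900. Neighbours in this order count as separated where the upper one was higher within all 4 libraries, on log2(TPM + 1). Of 9 neighbouring pairs, 6 were separated. Batf stood above Junb in 3 of 4 libraries, Junb above Jun in 2 of 4, and Batf2 above Jund in 3 of 4, so the order of these pairs did not hold across libraries.

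**Figure D1:**
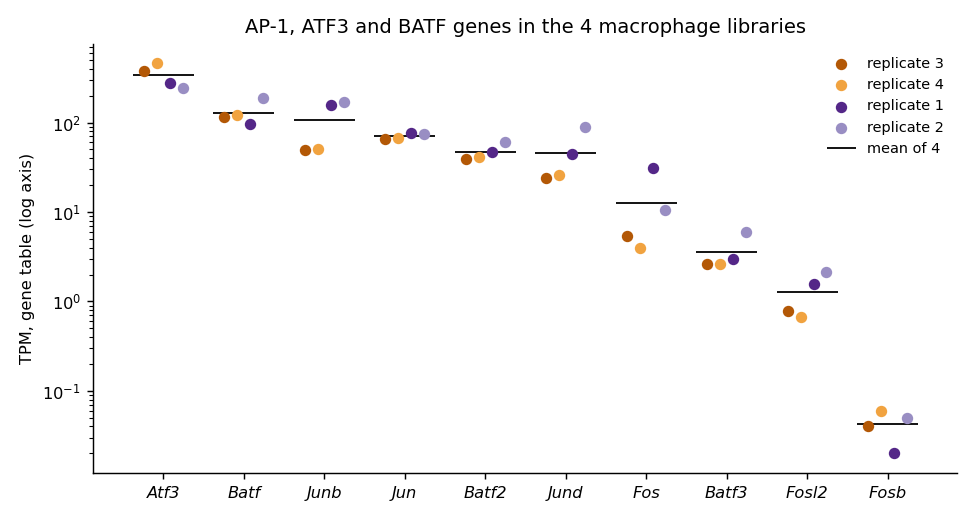
TPM of each of the 10 genes (log axis) in replicates 3, 4, 1 and 2, drawn from left to right within each gene, with the mean of 4 as a line. Atf3 lies highest at 339 TPM on average and Fosb lowest at 0.0425 TPM; the points of replicates 3 and 4 lie below those of replicates 1 and 2 for Junb, Jun, Batf2, Jund, Fos, Batf3 and Fosl2.

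Fos, the classical immediate-early gene whose protein pairs with JUN, had the largest fold change of the tested members with all 4 libraries. It stood at 5.41 and 3.92 TPM in replicates 3 and 4, against 30.9 and 10.4 TPM in replicates 1 and 2. The groups did not overlap, replicate 1 was the highest, and replicate 2 lay between it and replicates 3 and 4. On counts, 298 and 287 in replicates 3 and 4 against 960 and 357 in replicates 1 and 2, edgeR's quasi-likelihood test gave a log2 fold change of -2.31 (SE 0.57) for replicates 3 and 4 over replicates 1 and 2. It did not pass the threshold of 0.05 (Benjamini-Hochberg adjusted p = 0.0681). Leaving out replicate 1 gave -1.14, and leaving out replicate 2 gave -2.95. Without replicate 1 the lead was lost, as Jund (-1.69), Fosl2 (-1.65), Junb (-1.62) and Batf3 (-1.25) had larger changes.

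Fosl2, which encodes the FOS relative FRA-2, was scarce but lower in replicates 3 and 4. It had 0.78 and 0.67 TPM in replicates 3 and 4, against 1.55 and 2.15 TPM in replicates 1 and 2, with no overlap. The log2 fold change was -1.57 (SE 0.24, adjusted p = 0.0358 by edgeR), 2.96-fold lower in replicates 3 and 4, and it passed only with all 4 libraries in the fit. Fosb, another FOS family gene of the immediate-early response, had 4 and 8 counts in replicates 3 and 4, against 1 and 3 counts in replicates 1 and 2, and was too low to be tested. A count of 0 would allow up to 0.0614 and 0.0525 CPM (counts scaled by library size alone) in replicates 3 and 4 and up to 0.117 and 0.110 in replicates 1 and 2, for counting error alone. Fosl1, the remaining FOS family gene and no member here, averaged 0.01 TPM. Fos held 86.8% and 84.3% of the FOS family's summed TPM (Fos, Fosb and Fosl2) in replicates 3 and 4, against 95.2% and 82.5% in replicates 1 and 2.

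The 3 JUN genes did not move alike. Junb, whose protein is a weaker activator than JUN at many AP-1 sites, had 49.4 and 50.3 TPM in replicates 3 and 4, against 157 and 170 TPM in replicates 1 and 2. Values within each pair of libraries were close, and the pairs lay far apart. Its log2 fold change was -1.71 (SE 0.15, adjusted p = 0.0187 by edgeR), 3.26-fold lower in replicates 3 and 4. Jund, the JUN gene commonly expressed at a steady level in resting cells, had 23.9 and 26.0 TPM in replicates 3 and 4, against 44.9 and 89.0 TPM in replicates 1 and 2. Replicate 2 stood well above the other libraries. Its log2 fold change was -1.38 (SE 0.26, adjusted p = 0.0448 by edgeR), which did not pass with offsets for GC content and length (-0.60, SE 0.22, adjusted p = 0.139), with upper quartile factors (adjusted p = 0.0541) or on the counts of the second quantification (-1.17, SE 0.25, adjusted p = 0.053). The second quantification gave Jund 1.57 and 1.61 times the counts of the gene table in replicates 3 and 4, against 1.62 and 1.66 times in replicates 1 and 2, whereas the totals over all genes differed 1.07 and 1.06 times in replicates 3 and 4, against 1.31 and 1.32 times in replicates 1 and 2. Jund is the most GC-rich of the 10, at 67.1%, followed by Junb at 62.7%, as means over each gene's annotated transcripts. The Junb mean includes a transcript of 492 nt that was listed at 0 in every library. With the same offsets Junb kept its call at a smaller log2 fold change of -1.13 (SE 0.17, adjusted p = 0.036).

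By gene-table TPM, Jun, which encodes the family's founding member, was the steadiest of the 10 relative to its mean. In the second quantification Batf2 (42.0 ± 4.14 TPM, mean ± SD) varied slightly less relative to its mean than Jun (61.2 ± 6.19 TPM). In the gene table Jun had 65.5 and 67.6 TPM in replicates 3 and 4, against 75.5 and 74.9 TPM in replicates 1 and 2. In the second quantification, whose columns follow kallisto, the order turned round, with 65.3 and 67.6 TPM in replicates 3 and 4, against 55.6 and 56.2 TPM in replicates 1 and 2. On counts its log2 fold change was -0.17 (SE 0.17, adjusted p = 0.539 by edgeR). The make-up of the JUN pool differed between the pairs of libraries. Junb held 35.6% and 34.9% of the summed TPM of Jun, Junb and Jund in replicates 3 and 4, against 56.6% and 50.9% in replicates 1 and 2. Jun held 47.2% and 47.0% in replicates 3 and 4, against 27.3% and 22.4% in replicates 1 and 2. The same order of shares held in the second quantification, where Junb held 32.4% and 31.5% in replicates 3 and 4, against 54.0% and 47.5% in replicates 1 and 2. The pool summed to 139 and 144 TPM in replicates 3 and 4, against 277 and 334 TPM in replicates 1 and 2. It exceeded the summed FOS family 22.3 and 31.0 times in replicates 3 and 4, against 8.54 and 26.5 times in replicates 1 and 2, with overlap between the pairs.

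**Figure D2:**
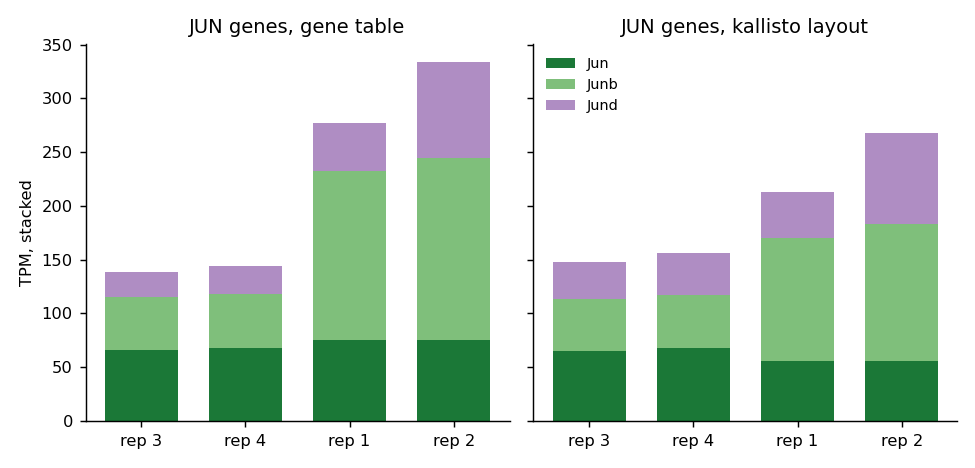
Stacked TPM of Jun, Junb and Jund in replicates 3, 4, 1 and 2, in the gene table (left) and in the kallisto layout (right). The Junb segment is near 50 TPM in replicates 3 and 4 and at 115 TPM or more in replicates 1 and 2 in both panels, while the Jun segment lies between 55.6 and 75.5 TPM in all libraries.

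Atf3, which encodes a stress- and TLR4-induced repressor of the ATF/CREB family, gave opposite directions on its 2 scales. Its gene level was 381 and 458 TPM in replicates 3 and 4, against 277 and 241 TPM in replicates 1 and 2, higher in replicates 3 and 4 with no overlap. Its CPM, here also scaled between libraries by TMM factors but not by length, were 207 and 231 in replicates 3 and 4. They were 359 and 262 in replicates 1 and 2, so replicates 3 and 4 were lower with no overlap. The log2 ratio of mean TPM + 1 was 0.69, whereas the edgeR log2 fold change on counts was -0.50 (SE 0.22, adjusted p = 0.194). The gene table assigned the gene an average transcript length of 1036 and 997.5 nt in replicates 3 and 4, against 1984 nt in both replicates 1 and 2. With offsets for the effective length in each library, an alternative chosen after seeing the data, the log2 fold change was 0.65 (SE 0.23). Neither direction passed the threshold.

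The transcript tables divided Atf3 differently among its transcripts in the 2 pairs of libraries. The long form, the protein-coding transcript ENSMUST00000027941.13 of 1984 nt in 4 exons (chr1:191170296-191183340, minus strand, mm10), had 135 and 150 TPM in replicates 3 and 4, against 277 and 241 TPM in replicates 1 and 2. The short form, ENSMUST00000131854.1, annotated as a processed transcript without a coding sequence, of 517 nt in 5 exons (chr1:191171425-191183108, minus strand), had 246 and 308 TPM in replicates 3 and 4 and was listed at 0 in both replicates 1 and 2. Its share of the gene's TPM was 64.6% and 67.2% in replicates 3 and 4, against 0% in both others, a mean of 33.0% ± 38.1 (SD, n = 4). By expected counts, which are not scaled by length, it took 21.6% and 23.3% in replicates 3 and 4. Another protein-coding form, which starts at an exon further upstream, was listed at 0 in every library of this table.

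The second quantification placed the short form in every library. The upstream protein-coding form was listed there at 0 in replicates 3 and 4, against 0.251 and 0 TPM in replicates 1 and 2. The short form had 244 and 324 TPM in replicates 3 and 4, against 63.8 and 48.3 TPM in replicates 1 and 2. Its share was 66.0% and 70.4% in replicates 3 and 4, against 25.2% and 22.4% in replicates 1 and 2. The long form had 125 and 136 TPM in replicates 3 and 4, against 189 and 167 TPM in replicates 1 and 2. Both quantifications therefore listed the protein-coding form lower and the short form higher in replicates 3 and 4, with no overlap, and they differed in whether the short form was present in replicates 1 and 2. All 517 exon bases of the short form lie inside exons of the long form, while 1467 bases of the long form lie outside the short one. The short form differs by splicing in 1 place, where 106 bases of the second exon of the long form (chr1:191177341-191177446) are removed. Reads elsewhere in the short form also match the long form, so the shares are estimates and were not tested.

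**Figure D3:**
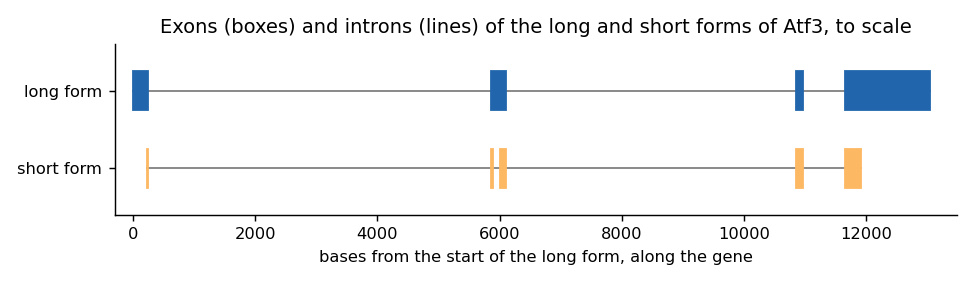
Exons of the long form (4 boxes) and the short form (5 boxes) of Atf3 drawn to scale by distance in bases from the start of the long form. Every box of the short form lies within a box of the long form, and the second exon is split in the short form by the loss of 106 bases.

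**Figure D4:**
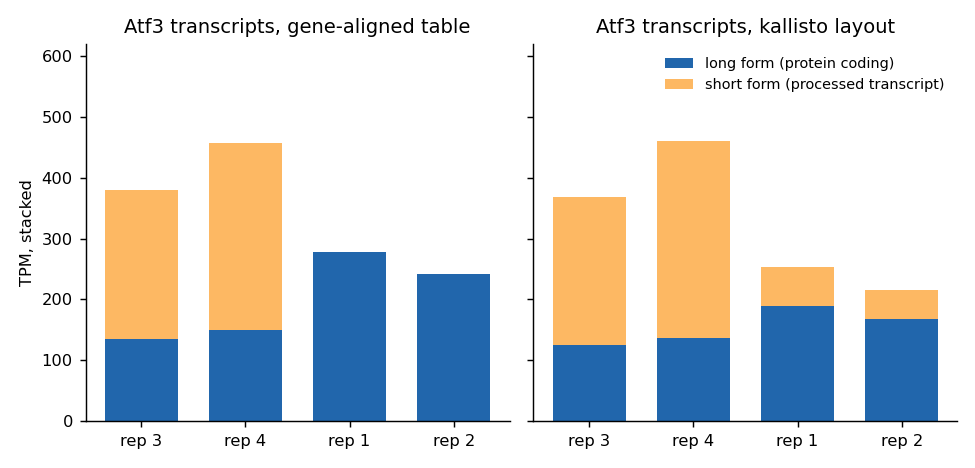
Stacked TPM of the long and short forms of Atf3 in replicates 3, 4, 1 and 2, in the gene-aligned table (left) and in the kallisto layout (right). The short form stands at 246 and 308 TPM in replicates 3 and 4 and at 0 in replicates 1 and 2 on the left, and at 63.8 and 48.3 TPM in replicates 1 and 2 on the right.

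Of the BATF genes, Batf led and Batf3 was scarce. Batf, which encodes a JUN partner that lacks an activation domain, had 114 and 120 TPM in replicates 3 and 4, against 96.9 and 186 TPM in replicates 1 and 2. The pairs of libraries overlapped, and replicate 2 was the highest. Batf2, an interferon-induced family member known from activated mouse macrophages, had 39.2 and 41.6 TPM in replicates 3 and 4, against 47.4 and 61.3 TPM in replicates 1 and 2, while in the second quantification the pairs overlapped. Batf3, known for its need in the development of cross-presenting dendritic cells, had 2.64 and 2.61 TPM in replicates 3 and 4, against 3.01 and 5.97 TPM in replicates 1 and 2, on 40 and 42 counts against 26 and 54. In the second quantification its pairs overlapped too, with 4.25 and 3.83 TPM in replicates 3 and 4, against 2.44 and 5.55 TPM in replicates 1 and 2. By edgeR none of these passed: the log2 fold change was -0.24 for Batf (SE 0.24, adjusted p = 0.553), -0.42 for Batf2 (SE 0.15, adjusted p = 0.134) and -0.98 for Batf3 (SE 0.38, adjusted p = 0.163). Beside Batf3, the dendritic cell markers summed to 3.05 and 2.03 TPM in replicates 3 and 4, against 4.95 and 4.12 TPM in replicates 1 and 2, and their part in its level was not tested. Batf held 65.8% to 73.4% of the BATF sum in the 4 libraries. Of its IRF partners, Irf8 averaged 117 ± 24.6 TPM and Irf4 0.41 ± 0.115 TPM (SD, n = 4), and 0 of 2 passed the edgeR test, with adjusted p-values of 0.132 and 0.811.

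Set against all genes, 3 of 9 tested members, Fosl2, Junb and Jund, passed the edgeR test, and all 3 were lower in replicates 3 and 4. Of 11991 tested genes 696 passed (5.8%), 446 of them lower (3.72%) and 250 higher. With GC and length offsets 249 were lower (2.08% of those tested) and 288 higher, so that the lower ones made up 46.4% of the calls, against 64.1% without the offsets, and 2 of 9 members, Fosl2 and Junb, were called. On the counts of the second quantification the same 2 were called, where 3.35% of tested genes were lower. DESeq2 called 4 of 10, adding Fos (log2 fold change -2.30, SE 0.50, adjusted p = 0.000174). The 10 were counted among the 22006 genes to which it gave a p-value. Of the 12980 genes with an adjusted p-value, 7.8% were lower. In the edgeR fit without offsets, all 9 log2 fold changes were negative, with a median of -0.98. Over all tested genes 50.9% were negative, with a median of -0.01. With GC and length offsets Batf was positive at 0.11. All other tested members stayed negative there, from -2.14 for Fos to -0.07 for Jun. The median over all tested genes was then 0.03. By TMM-scaled CPM, replicates 3 and 4 both lay below replicates 1 and 2 in 8 of 9 tested members. The same held in 30.1% of tested genes. By CPM, Batf overlapped among the tested members. By TPM of the second quantification, Fos, Fosl2, Junb and Jund were lower in replicates 3 and 4. On that scale Jun and Atf3 were higher, and Batf, Batf2 and Batf3 overlapped. Leaving out replicate 3 or replicate 4 ended every call, and leaving out replicate 1 left 177 called genes, among them Junb and Jund.

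**Figure D5:**
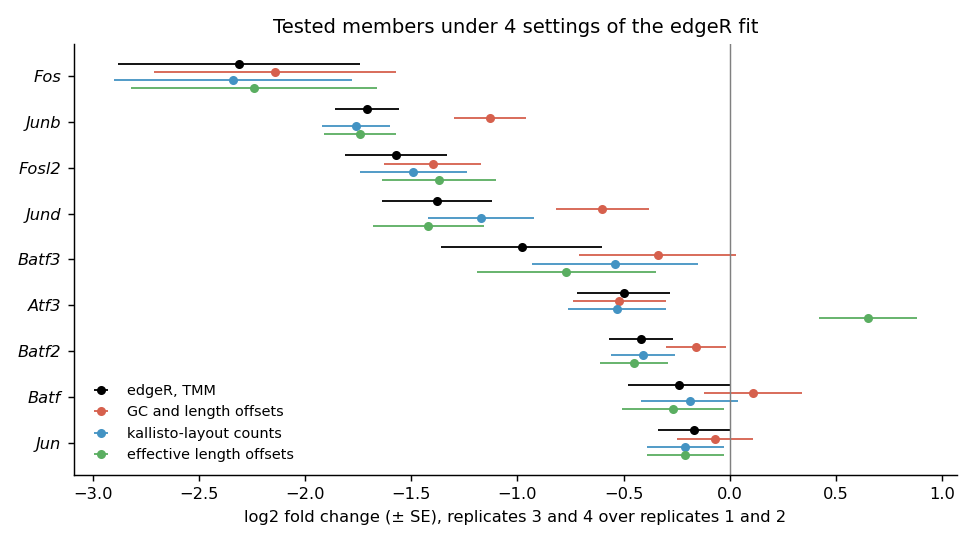
edgeR log2 fold change with its SE (bars) of the 9 tested members, replicates 3 and 4 over replicates 1 and 2, under 4 settings. Fos, Junb and Fosl2 lie below -1 in all 4; Jund moves to -0.60 with GC and length offsets; Atf3 lies at 0.65 with effective length offsets and near -0.50 in the others.

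Partners and upstream genes were taken from lists of the pathway. Their fold changes and calls are given for the edgeR fit without offsets only. Whether they hold with GC and length offsets is not given here. Among 16 other bZIP genes, which encode further partners and relatives, 15 reached 1 TPM, and Ddit3 (417 ± 151 TPM), encoding the stress factor CHOP, and Atf4 (240 ± 60.6 TPM), its upstream activator, were the highest. Over all tested genes 3.72% were lower, and of 15 tested here 2 were lower and 0 higher in replicates 3 and 4. These were Cebpb, a driver of inflammatory genes in macrophages (log2 fold change -2.05, SE 0.16, adjusted p = 0.0166 by edgeR), and Mafg, a small MAF protein (-1.02, SE 0.17, adjusted p = 0.0395). Cebpb had 22.5 and 19.2 TPM in replicates 3 and 4, against 80.3 and 93.7 TPM in replicates 1 and 2, with no overlap.

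Of 15 kinases and ternary complex factors upstream of AP-1, all reached 1 TPM, and Mapk3, an ERK kinase, had the highest mean (99.1 ± 25.9 TPM, SD, n = 4). In replicates 3 and 4, 3 of 15 were lower and 1 was higher by edgeR, beside 3.72% lower over all tested genes. The lower ones were the ERK activators Map2k1 (-1.12, SE 0.16, adjusted p = 0.0329) and Map2k2 (-1.30, SE 0.15, adjusted p = 0.0298) and the p38 activator Map2k3 (-0.94, SE 0.19, adjusted p = 0.0481). The higher one was Map2k6, which also activates p38 (2.01, SE 0.35, adjusted p = 0.0411), at 3.38 and 3.85 TPM in replicates 3 and 4, against 0.62 and 1.19 TPM in replicates 1 and 2. The median log2 fold change of this list was 0.04.

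Of 13 other immediate-early genes, 9 reached 1 TPM, led by Zfp36 (94.9 ± 11.8 TPM), whose protein degrades cytokine mRNAs, and Ier3 (39.0 ± 21.5 TPM). By edgeR 2 of 12 tested were lower and 0 higher in replicates 3 and 4, Dusp1, which encodes a MAP kinase phosphatase (-1.57, SE 0.17, adjusted p = 0.0247), and Ier5 (-1.18, SE 0.14, adjusted p = 0.0298). Fold changes were negative in 11 of 12, with a median of -0.88. Over all tested genes 3.72% were called lower, 50.9% of fold changes were negative, and the median was -0.01. Zfp36 itself did not pass (-0.27, SE 0.17, adjusted p = 0.336).

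The genes whose profile over the 4 libraries was most like that of a member were sought among 6989 genes of at least 10 TPM, as the smallest root mean square difference of log2(TPM + 1) around each gene's mean. For Fos these were Dusp6, an ERK phosphatase (0.15), Fpr1, the formyl peptide receptor (0.19), and Cdt1, a DNA replication licensing factor (0.19). Dusp6 had 4.35 and 4.36 TPM in replicates 3 and 4, against 32.2 and 9.28 TPM in replicates 1 and 2. For Atf3 they were Tns1, which links integrins to actin (0.033), Meaf6, a subunit of histone acetyltransferase complexes (0.040), and Specc1 (0.041). The Atf3 matches hold for gene-level TPM, on which Atf3 was higher in replicates 3 and 4, whereas its CPM were lower there. With 4 libraries, such likeness is a description of these profiles.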

How the data were processed

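PolyA-selected RNA of 4 macrophage libraries was analysed. Per the file headers, the deposited gene and transcript tables hold expected counts, which carry no normalization, and TPM, which are scaled within each library, in the column layout of RSEM. A further deposited transcript table holds estimated counts and TPM in the layout of kallisto. The tables use mm10 and GENCODE M21; no source used here names program versions. Members, lists, the library split and the tests were chosen with earlier results of these data known.

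Expected counts were rounded and compared by the quasi-likelihood test of edgeR 4.0.16, run in R 4.3.3, after TMM scaling. Low genes were removed by filterByExpr (minimum count 10), and calls used a Benjamini-Hochberg threshold of 0.05. Whether the filter asked for the minimum in all 4 or in at least 2 libraries was settled, for all 4, after both had been run. DESeq2 1.42.0 (Wald test) was an alternative. The SE was taken as the size of the log2 fold change divided by the root of its F statistic. Offsets for GC content and length came from loess fits (span 0.5) per library, set to 0 for 86 genes without transcript sequence. GC content and length were unweighted means over each gene's annotated transcripts. The fits were tested on simulated counts that held no GC or length difference between the pairs of libraries. At a log2 fold change of 1, edgeR recovered 56% and DESeq2 58% of the changed genes. At 2 they recovered 100% and 99%. Of unchanged genes, edgeR called 0.0763% and DESeq2 0.119%. Levels are TPM as mean ± SD, compared as log2(TPM + 1). Other tables were made with Python 3.11.15, pandas 2.3.3 and numpy 2.4.6, and figures with matplotlib 3.10.9. Totals of 25594338 to 57126811 counts put the limit that 0 counts allow (3 counts) at 0.0525 to 0.117 CPM. Alternatives were other normalizations, filters, quantifications, scalings and a pseudocount of 0.1, and leaving out each replicate; the closing section gives their effect.

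Named genes were all 10 members, Atf3 transcripts with a mean share of at least 5%, in each list the 2 genes of highest mean TPM and every called gene, and the 3 genes most like the member of highest TPM and the tested member of largest fold change. Fosl1, the third Atf3 form and the marker Ly6g were named after their values were seen. A single gene among those the rule covers was left out and is not reported here.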

Additional observations from a re-analysis of the deposited data

Results flagged for a closer look

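Batf3 had 1 library far from the others: 5.97 TPM in replicate 2, with 2.64 and 2.61 TPM in replicates 3 and 4 and 3.01 TPM in replicate 1. The gap of replicate 2 to its nearest neighbour took 0.881 of the whole range, above Dixon's critical value for 4 samples. Each of the 10 members was looked at in this way, 1 passed, and chance flags about 1 in 20 groups. The value of replicate 2 rests on 54 counts. In the second quantification the larger end gap of Batf3 took 0.448 of the range, below the critical value, and lay at replicate 1, the lowest there at 2.44 TPM. Jund passed in that quantification alone, at 0.852 of the range, with 34.9 and 39.3 TPM in replicates 3 and 4, against 42.2 and 84.6 TPM in replicates 1 and 2.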

How the results depend on the processing

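Leaving out replicates in turn left 0 to 671 called genes and 0 to 3 called members. Without replicate 1, 177 genes and the members Junb and Jund were called; without replicate 2, 671 genes and Fos, Junb and Jund; without replicate 3 and without replicate 4, 0 genes and 0 members by edgeR (1955 and 1966 at an unadjusted p under 0.05). DESeq2 called 1849 of 12980 genes with an adjusted p-value, and a fit with no filter on low counts called 2569 of 22006. The main fit called 696 of 11991. Both alternatives added Fos to the called members. A filter asking for at least 2 libraries gave 729 of 13264 genes and the same 3 members as the main fit. Offsets for effective length, also added after the data were seen, gave 993 of 11991 genes and the same 3. Directions reversed for Batf with GC and length offsets (0.11) and without replicate 2 (0.14), for Atf3 with effective length offsets (0.65), and for the order of Batf2 and Jund with kallisto-layout TPM (mean log2 ratio -0.17). Leave-one-out log2 fold changes were -1.77 to -1.62 for Junb, -1.67 to -1.46 for Fosl2, -1.69 to -0.97 for Jund -2.95 to -1.14 for Fos and -0.52 to 0.14 for Batf. Of the other alternative values, 91 of the fold changes kept direction and side of the threshold, 11 lost the call and 3 gained it; the cause was not tested. The TPM share of the short Atf3 form was 46.0% with kallisto-layout TPM and 21.5% to 43.9% with replicates left out. Fosb, on 1 to 8 counts per library, is limited by depth. No paired analysis was possible because the series has 1 group.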
